A study of Mus musculus with 6 samples.

Results

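The core circadian clock was followed through 10 genes of its transcription loop in the adult mouse spinal cord. They are the activators Arntl (also called Bmal1) and Clock, the repressors Per1, Per2, Per3, Cry1 and Cry2, the nuclear receptors Nr1d1 and Nr1d2, and the output factor Dbp. Members were chosen by gene identity and not by their values. Every probe set that the platform annotation assigns to one of these genes was taken, which gave 23 probe sets of 45037 that were not controls, and 10 genes of 18193 named by a single symbol. The groups were 3 untreated male Nogo-A KO C57Bl/6 mice and 3 untreated male wild type C57Bl/6 mice, all 4 months old, with whole spinal cord of each animal on 1 Affymetrix Mouse 430 2.0 array. Nogo-A, a protein in the membrane of myelin-forming cells, inhibits the growth of axons, and the labels give no further detail of the knockout allele. The labels used here do not give the time of day at which the cords were taken. The questions were therefore whether the clock genes differed between genotypes and whether the 6 arrays showed the same phase of the daily cycle.

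In mammals the proteins CLOCK and BMAL1 bind E-boxes as a dimer and switch on the Per, Cry, Nr1d and Dbp genes. PER and CRY proteins then return to the nucleus and block their own activators, while the NR1D receptors repress Arntl through a short element called the RRE, and DBP adds drive through D-boxes. As a result Arntl messenger RNA peaks at the opposite time of day from that of Nr1d1, Dbp and the Per genes in peripheral tissues, and nearly every tissue, neural tissue outside the brain's master clock included, keeps such a cycle.

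Letters of the loop's known elements near the starts of the members are shown here as matches to a search, without evidence of use in the cord. RefSeq start site windows of build GRCm38.p6, running from 250 bases before to 50 bases after a gene's start, were matched for 9 of the 10 genes, all but Per2. Searched on both strands, the E-box CACGTG was found in 7.15% of all 32851 windows, the variant CACGTT in 4.68%, the D-box TTATGTAA or TTACGTAA in 1.06%, and the RRE, written as A, any 2 bases and TAGGTCA, in 0.7%. CACGTG and CACGTT differ in the last base, so no stretch matched both. Capitals mark the matched letters, read 5′ to 3′ on the strand of the gene, and AACGTG is CACGTT on the other strand.
Per1 E-box: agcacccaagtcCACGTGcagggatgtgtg
Cry1 E-box: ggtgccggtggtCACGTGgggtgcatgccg
Nr1d1 E-box variant: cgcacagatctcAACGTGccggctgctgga
Per3 distal D-box: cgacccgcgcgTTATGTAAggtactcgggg
Per3 proximal D-box: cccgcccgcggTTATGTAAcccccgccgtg
Arntl RRE: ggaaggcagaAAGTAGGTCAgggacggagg
The Per1 stretch lies at chr11:69098771-69098800 on the plus strand, with the E-box beginning 166 bases before a start. That of Cry1 lies at chr10:85185097-85185126 on the minus strand, 60 bases before the start, and that of Nr1d1 at chr11:98775388-98775417 on the minus strand, 28 bases before the start. The D-boxes of Per3 lie 205 and 158 bases before its start on the minus strand, at chr4:151044852-151044881 and chr4:151044805-151044834. The RRE of Arntl begins 28 bases after a start, at chr7:113207528-113207557 on the plus strand. CACGTT was also matched once in Cry1 and once in Cry2. None of these letters were in the windows of Clock, Nr1d2 and Dbp, which says nothing of elements outside them.

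Signals are linear MAS 5.0 intensities that the authors had already scaled, array by array. The trimmed mean of every array was 500.002 or 500.003, but dim signals differed between arrays. The 5th percentile was 4.57 to 4.92 on the knockout arrays and 5.26 to 19.98 on the wild type arrays. The probe set 1437224_at of Rtn4, the gene that encodes Nogo-A, had signals of 78.2, 9.17 and 5.08 in Nogo-A KO, against 3560.2, 2790.4 and 2801.6 in wild type (limma, Benjamini-Hochberg adjusted p = 0.0151). The other 4 probe sets of Rtn4, 1421116_a_at, 1435284_at, 1439650_at and 1452649_at, lay above wild type without overlap, with folds of 1.47, 1.37, 1.62 and 1.32, and did not pass (limma unadjusted p of 0.000137 to 0.0079, adjusted p of 0.538 to 0.591). Of the 9 spinal cord markers, 8 were matched and 7 were tested, and Mbp, Snap25, Nefl, Gfap, Aqp4, Slc6a5 and Hoxc8 had median percentiles of 91.2 or higher on their arrays. Knockout lay above wild type in 5 of these 7 and below it in 2, and none passed (limma adjusted p of 0.591 or higher). Mbp (fold 1.23) and Nefl (fold 1.13) were higher without overlap, as were 7.85% of all tested probe sets. Chat, the defining enzyme of cholinergic neurons, was dim, at 75.1 to 132 in Nogo-A KO and 108 to 142 in wild type. Genes of skeletal muscle set 2 arrays apart. Their summed signal over 10 of 10 listed genes was 2173, 16477 and 2032 on knockout replicates 1 to 3, and 1287, 2632 and 7797 on wild type replicates 1 to 3. Knockout lay above wild type in 8 of 8 tested muscle genes, none of which passed (limma adjusted p of 0.774 or higher), and Acta1 had 4593 on knockout replicate 2 and 2142 on wild type replicate 3. Muscle has a clock of its own, so each gene's value without these 2 arrays is also given below.

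No clock gene passed the test between genotypes. Of 23 probe sets 20 were tested, covering all 10 genes, and 0 had an adjusted p under 0.05 in limma, where 0.00425% of all 23525 tested probe sets did. At an unadjusted p under 0.05 the count was again 0 of 20 in limma, against 8.29% of all tested probe sets (4.31% higher and 3.98% lower). The methods' t-test, which asks for p under 0.05 and also a fold of at least 1.2, called 0 of 20, against 4.83% of all tested probe sets. In 0 of 20 did the knockout signals lie clear of the wild type signals, against 14.5% of all tested probe sets (7.85% higher and 6.62% lower). The smallest unadjusted p of a clock probe set was 0.167, and adjusted p-values ran from 0.696 to 0.9998 (limma). Nogo-A KO lay above wild type in 9 probe sets and below it in 11, with a median log2 difference of -0.010, where the median over all tested probe sets was 0.0079. Directions here depend on the scaling, since dividing by array medians, which moved the median of all tested probe sets to 0.23, put 9 of the 10 genes above 0 and left only Cry1 below it. Each gene is represented below by its brightest tested probe set, and on these the fold of Nogo-A KO over wild type ran between 0.838 and 1.21. At this probe set the 95% interval excluded a change of 1.5-fold either way for 6 genes, Clock, Per1, Per3, Cry2, Nr1d2 and Dbp. It did not for Arntl, Per2, Cry1 and Nr1d1. Other tested probe sets did not exclude it for Clock (1439314_at, 0.530 to 1.33) and Nr1d2 (1416959_at, 0.922 to 1.51). The same held for Per3 (1441445_at, 0.628 to 1.26, and 1442243_at, 0.632 to 1.33). These bounds apply to the signals as scaled by the authors. In whole cord, fewer cells of a type and less RNA per cell cannot be told apart.

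Without the 2 muscle-rich arrays 0 of 20 clock probe sets passed and 3 had an unadjusted p under 0.05 (15%, against 14.1% of all tested probe sets in that setting, limma).

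**Figure D1:**
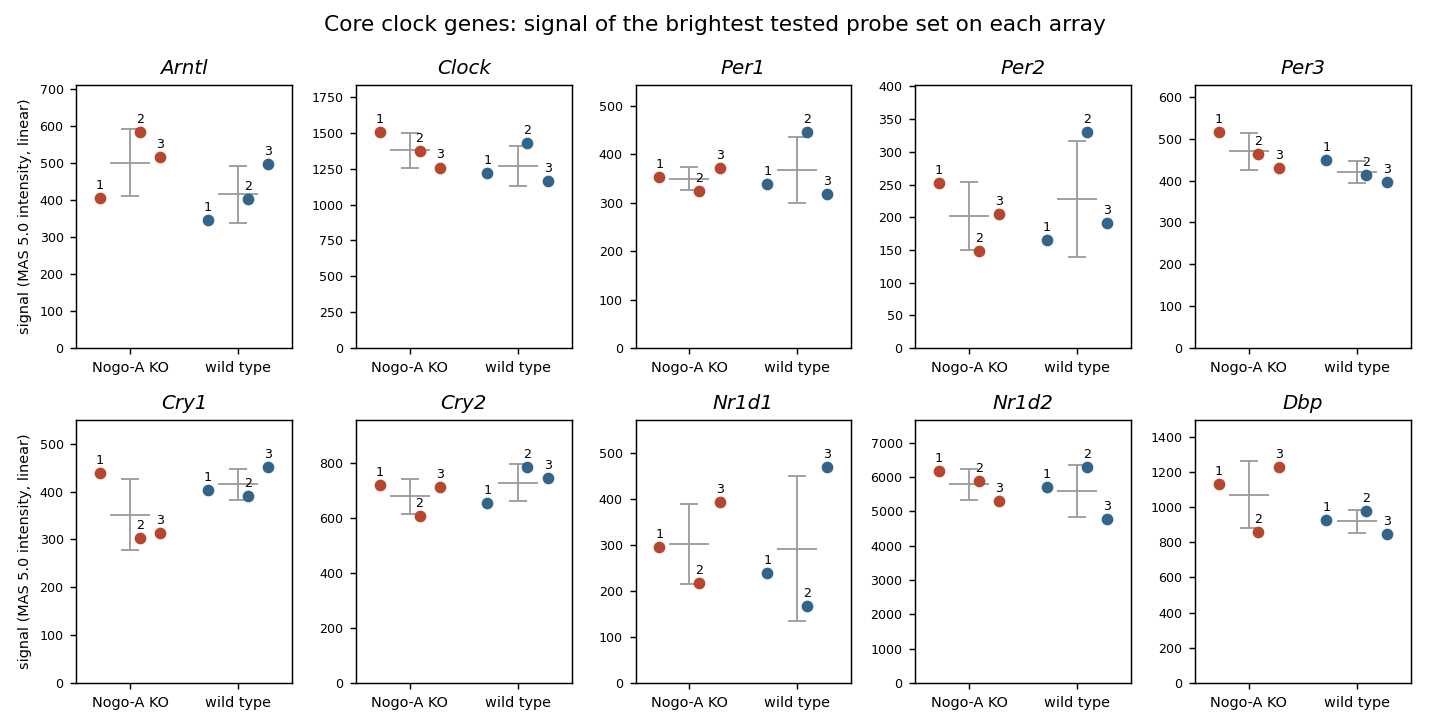
Signal of each clock gene (linear MAS 5.0 intensity, axis from 0) at its brightest tested probe set, with 1 point per array numbered by replicate, and grey bars for the mean and SD of 3 arrays. Nogo-A KO is left of wild type, and the points of the genotypes overlap in all 10 genes.

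Among the activators, Arntl had the largest fold of the 10 genes, and it did not pass. Arntl encodes BMAL1, the partner without which the loop does not run. Its brighter probe set, 1425099_a_at, read 406, 584 and 517 in Nogo-A KO and 347, 402 and 498 in wild type. Knockout replicate 1 lay level with wild type replicate 2, and knockout replicate 2 was the highest of the 6 arrays, so the genotypes overlapped. The means were 502 ± 89.7 in Nogo-A KO and 416 ± 76.3 in wild type (SD, n = 3 each), a fold of 1.21 with a 95% interval of 0.898 to 1.62 (limma adjusted p = 0.708). The array with the highest Arntl was also that with the most muscle signal, and without both muscle-rich arrays the fold was 1.23 (limma adjusted p = 0.543). The dimmer probe set, 1457740_at, went the other way, with 167, 189.9 and 128 in Nogo-A KO and 159.9, 185 and 246 in wild type, a fold of 0.825.

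Clock encodes the histone acetyltransferase partner of BMAL1 and is known to cycle little in most tissues. It was measured by 4 tested probe sets. The brightest, 1418659_at, read 1503, 1374 and 1259 in Nogo-A KO and 1219, 1431 and 1167 in wild type, a fold of 1.08 (95% interval 0.897 to 1.31, limma adjusted p = 0.811), or 1.04 without the muscle-rich arrays. Wild type replicate 2 lay among the knockout signals. The next, 1435775_at, read 1093, 976 and 818 in Nogo-A KO and 937, 1199 and 777 in wild type, a fold of 0.9998, with both the highest and the lowest array in wild type. The probe set 1418660_at, at 847 to 915 in Nogo-A KO and 757 to 892 in wild type, had 1.07. The dimmest, 1439314_at, stood at 253, 474 and 229.6 in Nogo-A KO and 279, 504 and 329 in wild type. It was high on replicate 2 of both genotypes, and its fold was 0.841 (limma adjusted p = 0.838), or 0.642 without the muscle-rich arrays (limma unadjusted p = 0.0477, adjusted p = 0.347).

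**Figure D2:**
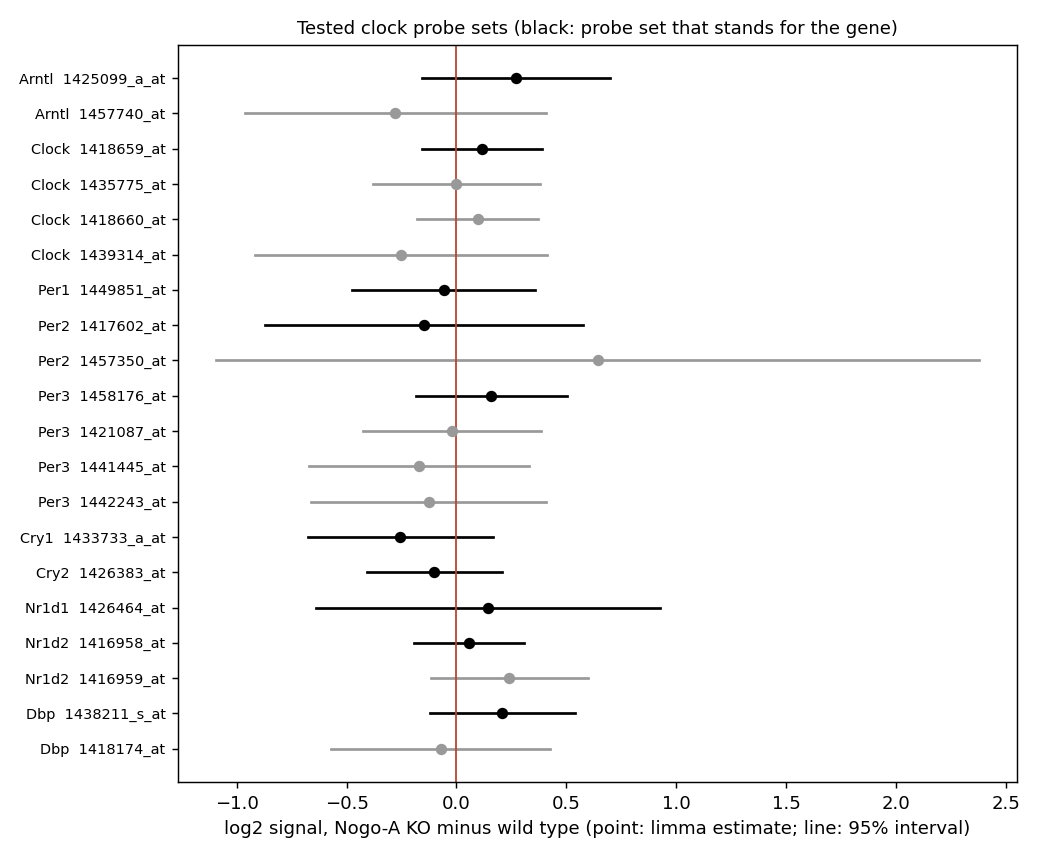
Difference in log2 signal, Nogo-A KO minus wild type, for each of the 20 tested clock probe sets, with the limma estimate as a point and its 95% interval as a line; black marks the probe set that stands for a gene. All 20 intervals include 0, and the widest belongs to the dim Per2 probe set 1457350_at.

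The Per genes, which encode the repressors that bind CRY, did not differ between genotypes beyond the spread of the animals. Per1, which is also an immediate responder to light and glucocorticoids in other tissues, read 353, 324 and 371 in Nogo-A KO and 339, 445 and 318 in wild type. Wild type replicate 2 alone stood above the knockout signals and wild type replicate 3 below them. The fold was 0.960 with a 95% interval of 0.720 to 1.28 (limma adjusted p = 0.949), and without wild type replicate 2 the log2 difference turned to 0.087. Without the muscle-rich arrays the fold was 0.932.

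Per2 varied more between animals than Per1. At 1417602_at it read 252, 148 and 204 in Nogo-A KO and 165, 329.7 and 191 in wild type, and the same wild type replicate 2 was again the highest array. Means were 202 ± 52.1 in Nogo-A KO and 229 ± 88.6 in wild type (SD, n = 3 each), a fold of 0.903 with a 95% interval of 0.547 to 1.49 (limma adjusted p = 0.919). The sign rested on single arrays, since the log2 difference was 0.15 without wild type replicate 2 and 0.057 without knockout replicate 2, against -0.15 with all arrays. Without the muscle-rich arrays it was -0.038. The probe set 1457350_at had 111, 176 and 116 in Nogo-A KO and 176, 175 and 19.5 in wild type, so that its fold of 1.56 came with an interval of 0.469 to 5.20 (limma adjusted p = 0.841). Wild type replicate 3, the array with the raised dim signals and the second highest muscle signal, was the low one.

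Per3 is the least needed of the Per genes for rhythm in mice, and it had 4 tested probe sets. The brightest, 1458176_at, read 515, 464 and 429 in Nogo-A KO and 449, 413 and 397 in wild type, a fold of 1.12 (95% interval 0.880 to 1.42, limma adjusted p = 0.794), or 1.09 without the muscle-rich arrays. Knockout replicate 3 lay between wild type replicates 1 and 2. The other 3 tested probe sets lay slightly lower in knockout on average. At 1421087_at Per3 read 279, 334 and 315 in Nogo-A KO and 312, 328 and 298 in wild type, a fold of 0.986. At 1441445_at it read 232, 225 and 266 in Nogo-A KO and 219, 303 and 299 in wild type, a fold of 0.888, and at 1442243_at it read 225, 184 and 207 in Nogo-A KO and 251, 216 and 206 in wild type, a fold of 0.916. The direction of the brightest probe set was thus not shared by the other tested probe sets, while the 2 untested ones, at log2 differences of 0.53 and 0.39, lay on its side. The 3 clock probe sets that failed the filter on dim signals belonged to Per2 (1) and Per3 (2), with signals of 22.7 to 140.4 on all arrays.

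Cry1 and Cry2 encode the flavoproteins that repress CLOCK and BMAL1 most directly, and each had 1 probe set. Cry1 read 438, 303 and 314 in Nogo-A KO and 404, 389.96 and 451 in wild type. Knockout replicates 2 and 3 lay below every wild type array, and knockout replicate 1 lay among them. Its fold of 0.838 was the lowest of the 10 genes, with a 95% interval of 0.625 to 1.12 (limma adjusted p = 0.720). Cry2 read 720.3, 605 and 710.2 in Nogo-A KO and 654, 784 and 745 in wild type, a fold of 0.932 (95% interval 0.753 to 1.15, limma adjusted p = 0.863). With single arrays left out, the log2 difference ran from -0.42 to -0.16 for Cry1 and from -0.18 to -0.021 for Cry2. Without the muscle-rich arrays the fold was 0.935 for Cry1 and 0.999 for Cry2 (limma adjusted p = 0.876 and 0.9986), both closer to 1 than with all arrays.

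Nr1d1 and Nr1d2 encode REV-ERB alpha and beta, the receptors that repress Arntl and close the second loop of the clock. Nr1d1 was the most variable of the 10 genes at their brightest tested probe sets. It read 295, 217 and 392 in Nogo-A KO and 239, 166 and 468 in wild type, so the highest and the lowest array, 2.82-fold apart, were both wild type. Its fold was 1.10 with a 95% interval of 0.641 to 1.90 (limma adjusted p = 0.9299). The log2 difference was -0.068 without knockout replicate 3 and -0.19 without wild type replicate 2, against 0.14 with all arrays. Without both muscle-rich arrays the fold was 1.70 (limma unadjusted p = 0.0181, adjusted p = 0.262), and this setting leaves 2 arrays per genotype.

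Nr1d2 was measured by probe sets that moved together across arrays. At 1416958_at it read 6192, 5896 and 5306 in Nogo-A KO and 5717, 6292 and 4775 in wild type, a fold of 1.04 (95% interval 0.875 to 1.24, limma adjusted p = 0.907). At 1416959_at it read 769.7, 709.5 and 647 in Nogo-A KO and 619.8, 707 and 488 in wild type, a fold of 1.18 (limma adjusted p = 0.696). In both, wild type replicate 3 was the lowest array, and without it the log2 difference at the brighter probe set was -0.052, against 0.058 with all arrays. Without both muscle-rich arrays the fold there was 0.956.

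Dbp, a PAR bZIP factor that binds D-boxes and is known as one of the strongest cycling transcripts of peripheral tissues, had 2 probe sets that did not share a direction. The brighter, 1438211_s_at, read 1132, 856 and 1228 in Nogo-A KO and 927, 980.4 and 849 in wild type. Knockout replicates 1 and 3 stood above every wild type array and knockout replicate 2 near the lowest. The means were 1072 ± 193 in Nogo-A KO and 919 ± 66.0 in wild type (SD, n = 3 each), a fold of 1.16 with a 95% interval of 0.919 to 1.45 (limma adjusted p = 0.712). Without knockout replicate 2 the fold was 1.29 (limma unadjusted p = 0.0306, adjusted p = 0.7202), and without both muscle-rich arrays 1.24 (limma unadjusted p = 0.0439, adjusted p = 0.3400). At 1418174_at Dbp read 577, 483 and 713 in Nogo-A KO and 428, 686 and 785 in wild type, a fold of 0.951. Knockout replicate 2 was low at both probe sets, and wild type replicate 3 was the lowest array at one and the highest at the other.

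The phase of the clock was compared between arrays through the known opposition of Arntl to Nr1d1, Dbp and the Per genes. Within an array, the log2 ratio of Dbp over Arntl was 1.48, 0.55 and 1.25 in Nogo-A KO and 1.42, 1.29 and 0.77 in wild type. The levels of these ratios depend on the probes, and only their differences between arrays can be read. Knockout replicate 2 and wild type replicate 3, the muscle-rich arrays, had the lowest ratios. The genotypes differed by -0.064 in the mean (exact permutation test, two-sided p = 0.8, where 0.1 is the smallest p that 3 against 3 arrays allow), and by 0.013 without the muscle-rich arrays. For Nr1d1 over Arntl the ratios were -0.46, -1.43 and -0.40 in Nogo-A KO and -0.54, -1.27 and -0.089 in wild type. Here replicate 2 of each genotype was the low array, and the means differed by -0.13 (exact permutation test, two-sided p = 0.7). Without the muscle-rich arrays this difference turned to 0.48 (exact permutation test, two-sided p = 0.333, the smallest that 2 against 2 arrays allow, so the test could not pass).

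**Figure D3:**
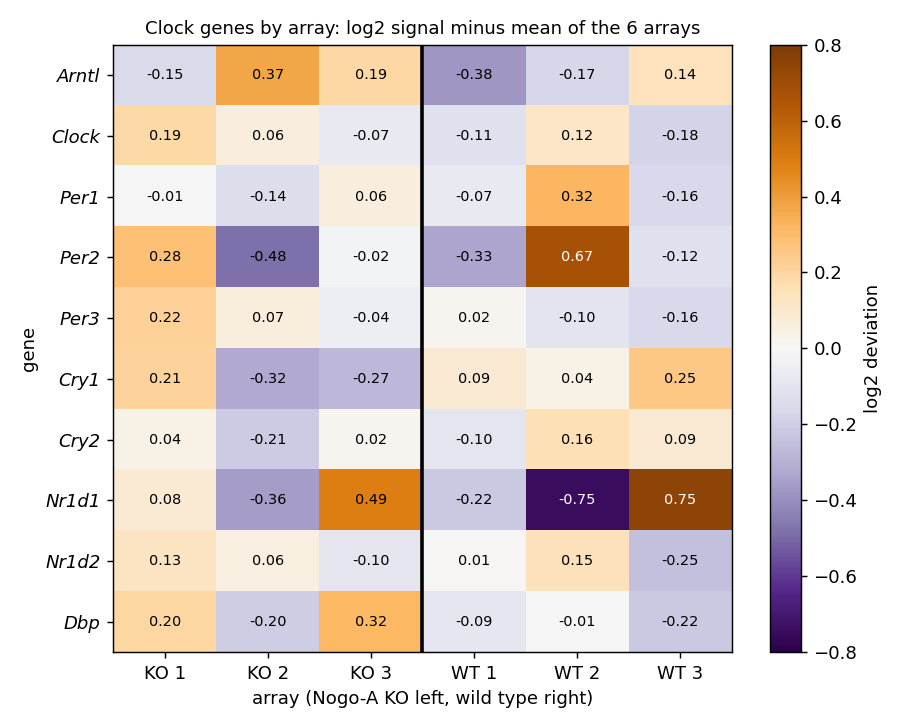
Log2 signal of each clock gene (rows) on each array (columns, Nogo-A KO left and wild type right) minus the mean of the gene over the 6 arrays, from purple (below) to orange (above). Nr1d1 and Per2 show the strongest colours, in opposite directions on wild type replicate 2, at -0.75 and 0.67.

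Every array had clock genes on both sides of their means. Relative to the mean of 6 arrays, knockout replicate 2 had Arntl at 0.37, its highest, with Per2 at -0.48, Nr1d1 at -0.36, Cry1 at -0.32 and Dbp at -0.20 on the log2 scale. Wild type replicate 2 had Arntl at -0.17 with Per2 at 0.67 and Per1 at 0.32, their highest, while Nr1d1 stood at -0.75, its lowest. Wild type replicate 3 had Nr1d1 at 0.75 while Dbp stood at -0.22 and Nr1d2 at -0.25. Of the 10 genes, 4 were highest on wild type replicate 2 and 5 were lowest on wild type replicate 3. Pearson's r of Arntl was negative with 8 of the 9 other genes and positive with Nr1d1, while Spearman's rho was positive with Per3 (0.086) as well. Of the genes described above as opposite to Arntl, Dbp, Per1, Per2 and Per3 had a negative r. The positive r of Nr1d1 ran against the known opposition. None of the 9 relations passed, with Pearson's r of -0.62 for Cry1 (exact permutation p = 0.211, Spearman's rho = -0.49, exact permutation p = 0.356) at one end and 0.34 for Nr1d1 (exact permutation p = 0.499, rho = 0.26, exact permutation p = 0.658) at the other. The smallest Benjamini-Hochberg adjusted p over the 9 was 0.815 for r and 0.988 for rho (exact permutation tests over 6 arrays). With Dbp r was -0.13 and rho -0.086 (exact permutation p = 0.796 and p = 0.919). Without knockout replicate 2 and wild type replicate 1, the arrays farthest from the median of Arntl, r over the other 4 arrays was -0.91 for Clock, -0.90 for Nr1d2, -0.88 for Per2, -0.55 for Per1, -0.50 for Per3, -0.49 for Cry2, -0.42 for Cry1, 0.0059 for Dbp and 0.83 for Nr1d1. After removal of the genotype means r over 6 arrays ran from -0.80 for Per3, -0.61 for Nr1d2 and -0.57 for Dbp to -0.11 for Cry2, with Nr1d1 at 0.31. Neither set of values was tested.

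Spread between animals of a genotype was read at the brightest tested probe set of each gene. Before any allowance for signal, it lay in the upper range of all transcripts for Nr1d1 and Per2. For the other clock genes it lay in the middle or lower range. The residual SD of log2 signal had a median of 0.216 over all tested probe sets, and 4 of the 10 clock genes lay above it. These were Nr1d1 at 0.615 (percentile 94.5 of all tested), Per2 at 0.462 (percentile 88.1), Arntl at 0.264 (percentile 62.7) and Cry1 at 0.221 (percentile 51.6). Per3 had 0.112, Cry2 0.138 and Clock 0.142, at percentiles 16.1, 24.8 and 26.4. Dim probe sets vary more, so each SD was also set against the SD that limma's trend gives for its signal. On that scale 5 of the 10 genes had a ratio above 1. These were Nr1d1 at 2.11 (percentile 95.8), Nr1d2 at 1.32 (percentile 76.1), Per2 at 1.27 (percentile 72.9), Dbp at 1.21 (percentile 69.7) and Arntl at 1.19 (percentile 68.2). Per3 had 0.501 (percentile 9.80). Dimmer probe sets of a gene could differ, with 1439314_at of Clock at percentile 93.8, 1418174_at of Dbp at 93.6 and 1421087_at of Per3 at 4.25. These percentiles are descriptions and were not tested. Over the 6 arrays the highest signal was 2.82 times the lowest in Nr1d1, 2.22 times in Per2 and 1.68 times in Arntl, and 1.29 times in Clock, the lowest ratio of the 10.

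**Figure D4:**
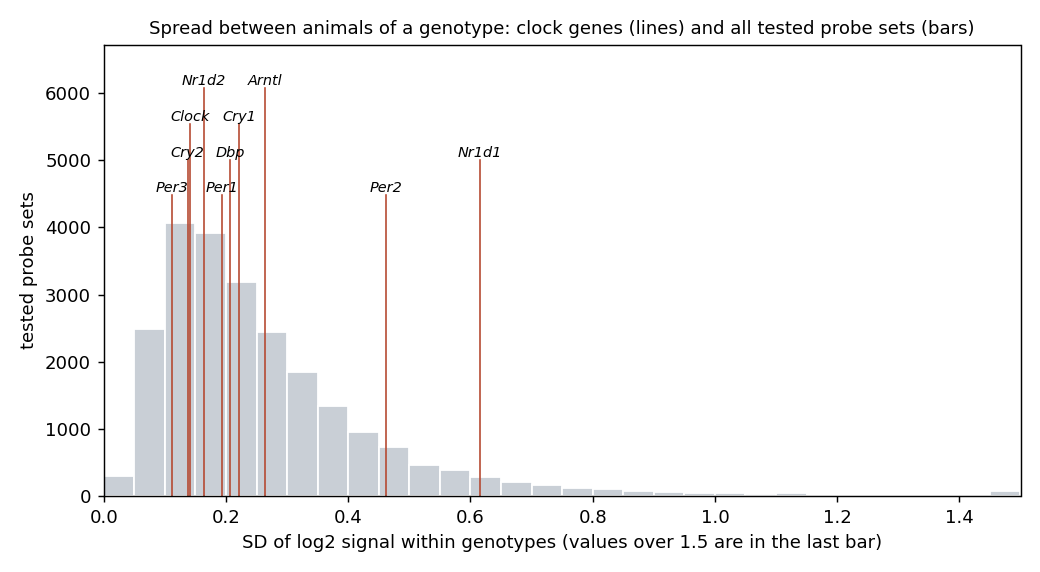
SD of log2 signal within genotypes for all 23525 tested probe sets (grey bars, number of probe sets per step of 0.05) and for the 10 clock genes at their brightest tested probe set (red lines). Nr1d1 at 0.615 and Per2 at 0.462 stand in the right tail and the other 8 genes in the main body.

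Probe sets of the same gene often disagreed, which limits how finely the members can be read. Among 6 genes with more than 1 tested probe set, 5 had probe sets on both sides of 0 between genotypes, with Nr1d2 the exception. Of 16 such pairs of probe sets, 6 shared a direction and 9 correlated positively over the 6 arrays. The probe sets of Nr1d2 had r = 0.92 and the brightest pair of Clock r = 0.87, whereas those of Dbp had r = 0.24, those of Arntl r = 0.17 and those of Per2 r = 0.072. These correlations over 6 arrays describe shared arrays and scaling and carry no test.

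Other genes of the clock did not pass either. Of 27 tested genes in 4 lists of clock components and outputs, 0 had an adjusted p under 0.05 and 0 an unadjusted p under 0.05 in limma, against 0.00425% and 8.29% of all tested probe sets. The median log2 difference was 0.051, with 17 genes above 0 and 10 below, where 51.4% of all tested probe sets lay above 0. Among the 7 tested activators and genes of the second loop, 2 lay above 0 and 5 below. Ciart, a repressor of CLOCK and BMAL1, read 295, 294 and 249 in Nogo-A KO and 145, 252 and 274 in wild type (fold 1.29, limma adjusted p = 0.719), with wild type replicate 1 the lone low array. Npas2, which can stand in for CLOCK in the brain, had a fold of 0.788 and Rora, which activates Arntl at the RRE, one of 1.07. The 3 genes of the D-box loop all lay above 0 without passing. Tef and Hlf, which are PAR bZIP factors like DBP, had folds of 1.11 and 1.06 and their antagonist Nfil3 one of 1.11 (limma adjusted p = 0.7501, 0.874 and 0.903).

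Genes that act on PER and CRY proteins numbered 11 tested, with 7 above 0 and 4 below. The kinase genes Csnk1d and Csnk1e, whose products mark PER for decay, had folds of 1.13 and 1.08 (limma adjusted p = 0.688 and 0.854). Nono, a partner of PER, had 1.10 and Csnk2a1, a kinase subunit that acts on PER2 and BMAL1, had 0.815 (limma adjusted p = 0.7105 and 0.711). Btrc, a ubiquitin ligase subunit that removes PER, read 1135, 1120.0 and 1183 in Nogo-A KO, below wild type at 1270, 1243 and 1204, but the fold was 0.925 (limma adjusted p = 0.786). Outputs that cycle in many tissues lay above 0 in 5 of 6. Nampt, the enzyme that makes the NAD precursor nicotinamide mononucleotide, had a fold of 1.18 with no overlap, at 1077, 1109.98 and 1085 in Nogo-A KO and 1028, 986 and 786 in wild type (limma adjusted p = 0.655). Usp2, a deubiquitinase, had a fold of 1.17 and Tspan4, a tetraspanin, 0.937.

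Among glucocorticoid targets and activity genes no gene passed. Of 8 glucocorticoid targets 2 lay above 0 and 6 below, with a median log2 difference of -0.12 and 0 past the adjusted threshold (limma). Mt2, a metallothionein, read 4628, 5308 and 5077 in Nogo-A KO and 6073, 8311 and 9085 in wild type, a fold of 0.648 (limma unadjusted p = 0.000798, adjusted p = 0.591). Zbtb16, a zinc finger factor, had a fold of 0.721 and Pdk4, a kinase that restrains glucose oxidation, 1.28 (limma adjusted p = 0.594 and 0.607). At an unadjusted p under 0.05 Mt2 and Zbtb16 were the 2 lower genes of this list of 8, against 3.98% of all tested probe sets that were lower at that threshold. Sgk1, a kinase induced by glucocorticoids, read 2874, 1888 and 2202 in Nogo-A KO and 1956, 3291 and 3170 in wild type. It was high on wild type replicates 2 and 3, while Per1 was highest on replicate 2 and lowest on replicate 3. Of 8 tested activity genes 4 lay above 0 and 4 below, with a median of 0.035. Junb, a partner of Fos, had a fold of 2.17 (limma adjusted p = 0.594), Egr1, a zinc finger factor, 0.686 and Dusp1, a phosphatase gene, 1.35 (limma adjusted p = 0.594 and 0.599), so that 2 of 8 were higher and 1 lower at an unadjusted p under 0.05, against 4.31% higher and 3.98% lower among all tested probe sets. Markers of the master clock, a nucleus of the brain outside the sample, were in part measured. Of 6 listed, 5 were matched and 2 were tested. The summed signal of the matched 5, untested ones included, was 430.1 to 522 in Nogo-A KO and 559.8 to 636 in wild type. Six6, an untested homeobox factor of that nucleus, stood at 4.74 to 45.8 in Nogo-A KO and 23.9 to 41.4 in wild type. The tested ones were Vip, a neuropeptide gene also used outside that nucleus, at 160 to 229 in Nogo-A KO and 166 to 249.8 in wild type, and Lhx1, a LIM homeobox factor, at 137 to 179 in Nogo-A KO and 57.1 to 238 in wild type. Their median percentiles of 57.5 and 51.3 on the arrays were near that of Per2, at 54.6. Adipose markers had 2 of 4 matched and none tested, and blood markers 2 of 3 matched and 1 tested. The part of muscle, adipose or blood RNA in the clock signals was not tested beyond the values without the muscle-rich arrays.

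Genes were also ranked by how close their pattern over the 6 arrays was to that of Dbp or Arntl. The core clock genes were left out of this ranking beforehand, so none of them could appear in it. Whether Dbp follows the core clock can therefore not be read from these names. Among the genes ranked, those closest to Dbp were not clock genes by name. The 5 with the highest Pearson correlation were Zdhhc14, a palmitoyltransferase gene, at r = 0.988, Azin2, a regulator of polyamine synthesis, at 0.984, Dusp26, a phosphatase gene, at 0.984, Zbtb25 at 0.984 and Poc1b, which encodes a centriole protein, at 0.978. For Arntl they were Hdgfl2 at r = 0.985, Elavl3, a neuronal RNA-binding protein gene, at 0.973, Vps53, of a vesicle tethering complex, at 0.968, Foxj3 at 0.965 and Trak2, an adaptor for mitochondrial transport, at 0.965. Among 19912 probe sets compared, 125 had r over 0.9 with Dbp and 62 with Arntl, so these names come from the top of a long list over 6 arrays and carry no test.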

How the data were processed

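Whole spinal cord RNA of 6 mice, 3 per genotype, was hybridised to 1 array per animal. Per the submitters' processing notes, GCOS 1.4 and MAS 5.0 gave the intensity values that the authors deposited. They were used as scaled by the authors and taken to log2. Scaling by the array median, close to the per-chip step of the design text, was an alternative because the median follows dim signals. Of 45101 listed probe sets, 64 controls were dropped. Testing required a signal at the array's 50th percentile or above, on 2 or more of the 3 arrays in either genotype, in place of a filter on present calls. The genotypes were set against each other with limma 3.58.1 in R 4.3.3 (lmFit, then eBayes with an intensity trend), with Benjamini-Hochberg adjustment over all 23525 tested probe sets at 0.05. The 95% intervals are limma's. The series' 1-factor test (p under 0.05, fold of at least 1.2) was run as the methods' t-test. The model was tested on simulated data. A gene's brightest tested probe set stood for it. Precision is limited by the 3 arrays per genotype. The p-values of limma set genotype differences against the spread between these animals, moderated over all tested probe sets.

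Members, lists and tests were chosen with earlier results of these data known. All tested member probe sets are named or counted. From each other list up to 3 genes of the smallest p are named, with genes needed for a marker check. Also named are the 5 genes outside the core clock most like Dbp and Arntl. Csnk1e, Btrc and Sgk1 were named for their role after their values were seen. Gene symbols are those of the array's annotation, brought up to date by Entrez identifier with RefSeq's GRCm38.p6 gene table. Leaving out both muscle-rich arrays was chosen after the data were seen. The replicate numbers are not known to pair the animals. Deviations from genotype means of same-numbered arrays correlated at -0.035, 0.074 and 0.11, which cannot show whether those animals were handled together. Intensities carry no counts, so no read depth applies.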

Additional observations from a re-analysis of the deposited data

How the results depend on the processing

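The count of clock probe sets past the adjusted threshold was 0 under every alternative run. Over all tested probe sets 1 passed, against 0 without the eBayes trend, 4 with the replicate block, 3 without both muscle-rich arrays, 0 to 9 with single arrays left out, and 1136 (527 higher, 609 lower) in the methods' t-test before and 0 after Benjamini-Hochberg adjustment. The replicate block, for which no pairing is known, left 0 of 20 clock probe sets past the threshold.

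Scaling by the array median put the overall median of log2 differences at 0.23. It adds 0.22 to every log2 difference, so values relative to the overall median differ from the main ones only by a small constant. All 10 genes kept their direction on that scale, which is therefore no separate check. As fitted, 9 of 10 genes lay above 0 and Cry1 at -0.035. Then 2 of 20 clock probe sets (10%) had an unadjusted p under 0.05 in limma, against 13% of all tested. They were 1425099_a_at of Arntl (limma unadjusted p = 0.0217) and the dimmer 1416959_at of Nr1d2 (limma unadjusted p = 0.0463), each with adjusted p = 0.382. The brighter probe set of Nr1d2, 1416958_at, had a limma unadjusted p of 0.192 and an adjusted p of 0.472. The correlation r of Arntl with Dbp turned to 0.36. Quantile normalization reversed Per1 (0.022), Per2 (0.019) and Nr1d2 (-0.029). The mean of all tested probe sets of a gene reversed Per2 (0.25), Per3 (-0.040), Arntl (-0.0029), Clock (-0.0092) and the ratios of Dbp (0.071) and Nr1d1 (0.15) over Arntl, and the steadiest probe set reversed Per3 (-0.020). Without both muscle-rich arrays Nr1d2 (-0.065) and the ratios of Dbp (0.013) and Nr1d1 (0.48) over Arntl reversed. With single arrays left out, log2 differences ran from -0.15 to 0.087 for Per1, -0.35 to 0.15 for Per2, -0.19 to 0.55 for Nr1d1 and -0.052 to 0.15 for Nr1d2, and the ratios from -0.26 to 0.21 for Dbp and -0.45 to 0.20 for Nr1d1 over Arntl. The other 6 genes kept their direction there. The cause of these reversals was not tested. The printed intervals hold the differences compatible with these 3 arrays per genotype. They are not limits of detection, and larger differences could also miss the adjusted threshold.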
